A study of Mus musculus with 8 samples.

Results

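The Myc family genes of the mouse are Myc, Mycn and Mycl1 (the older symbol of Mycl, as in the annotation). CTCF-binding sites were assigned to them when the centre of the site lay inside the gene body or within 50 kb of it (GENCODE vM1 annotation, mm9). This gave 20 of the 104008 sites in the table, with 7 at Myc, 3 at Mycn and 10 at Mycl1. The sites were obtained by CTCF ChIP-seq in iMEF2, a single line of immortalized mouse embryo fibroblasts of the genotype Ash2l fl/fl/Cre-ER that carries an shRNA against p19Arf. For 7 days the cells were kept with 5 nM 4-hydroxytamoxifen (+HOT), upon which Cre-ER removes exon 4 of Ash2l, or with the ethanol vehicle (-HOT). All groups share the floxed allele, the recombinase and the shRNA, so no group controls for HOT or active Cre in cells without the floxed allele. HOT-treated cells had stopped dividing after day 3 and were not passaged again at day 5, unlike the vehicle cells, so the treatment and the growth state cannot be told apart. CTCF immunoprecipitations were compared, 2 +HOT with 2 -HOT. The remaining samples of the series are inputs, and the table gives no input value per site.

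MYC, MYCN and MYCL are basic helix-loop-helix leucine zipper transcription factors. They bind E-box DNA as dimers with MAX and drive genes for growth, ribosome production and nucleotide synthesis. Myc is active in most dividing cells, whereas Mycn and Mycl are used mainly in embryonic and neural tissues, and the genes are amplified in human tumours. The KMT2 methyltransferases, which place methyl groups on lysine 4 of histone H3 at promoters, need ASH2L as a core component, and ASH2L can interact with MYC. CTCF is a zinc finger protein that binds a long, asymmetric DNA motif and stops cohesin, so that chromatin loops form between sites. It was first described as a protein that binds the promoter of the chicken Myc gene.

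The DNA letters under these sites are shown first, because the sites that carried the most reads or changed differ in kind. A matrix of 20 positions was built from the core word CCNNNAGNNGGC, searched on both strands of the 5000 strongest sites outside the Myc family windows. A match had to score above a log2 odds of 4.81, a limit that 5.0% of shuffled sites passed. Of the 20 sites, 17 held a match, as did 80.0% of all sites. In the stretches below, read 5′ to 3′ along the strand of the motif from the mm9 genome, capitals mark the match and small letters the flanks. They are the strongest site of the Myc window, the site in Mycn that gained reads, the site over the start of Mycl1, and the neighbour of Mycl1 used below as its reference.
Myc -1.9 kb: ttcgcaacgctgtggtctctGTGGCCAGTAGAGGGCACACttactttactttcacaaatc
Mycn +2.8 kb: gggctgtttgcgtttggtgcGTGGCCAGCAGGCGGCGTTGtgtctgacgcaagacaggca
Mycl1 +0.1 kb: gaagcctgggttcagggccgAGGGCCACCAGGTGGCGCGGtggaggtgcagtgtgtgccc
Mycl1 -10.3 kb: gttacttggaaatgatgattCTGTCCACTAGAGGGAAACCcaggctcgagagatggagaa
Sites are named by the distance of their centre from the start of the gene, with a plus sign in the direction of transcription. The match at Myc -1.9 kb lies at chr15:61814982-61815001 on the plus strand, and its score of 21.2 exceeded that of 94.97% of all sites. The match in Mycn is at chr12:12945947-12945966 on the minus strand, and that at the start of Mycl1 at chr4:122672720-122672739 on the plus strand. The last of these lies just upstream of the annotated gene start. All 3 read in the direction of their gene. The match at Mycl1 -10.3 kb is at chr4:122662531-122662550 on the minus strand, opposite to the gene, and scored 6.95.

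The 2 called sites of Myc held weaker matches than Myc -1.9 kb. The match of the site in intron 1 (Myc +1.5 kb) was TTCTCCTTCAGGTGGCGCAA at chr15:61818676-61818695, with a score of 12.9, inside the first exon of a shorter annotated transcript. That of the site over the first exon (Myc +0.2 kb) was CTGCCCTTCAGGAGGCAGGA at chr15:61816998-61817017, on the strand opposite to the gene, with a score of 11.1. The sites at Myc -0.9 kb, Myc -0.4 kb and Mycn -0.7 kb held no match above the limit, which says only that these letters are not in these windows.

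A further word recurred outside the promoters of Myc, Mycn and Mycl1. The run of 20 letters shown next was found, on either strand, in 6 of the 20 sites, which are Myc +35.5 kb, Mycn -34.5 kb, and Mycl1 -27.9 kb, -26.4 kb, -5.8 kb and +52.0 kb. The last of these lies within 3000 bp of a start of another gene, Trit1.
shared word: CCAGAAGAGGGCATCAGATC
Myc +35.5 kb: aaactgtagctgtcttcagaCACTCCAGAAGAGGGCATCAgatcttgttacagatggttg
Mycn -34.5 kb: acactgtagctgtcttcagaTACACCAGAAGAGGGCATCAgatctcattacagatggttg
Mycl1 -26.4 kb: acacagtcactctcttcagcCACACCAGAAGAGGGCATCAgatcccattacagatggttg
Mycl1 -7.5 kb: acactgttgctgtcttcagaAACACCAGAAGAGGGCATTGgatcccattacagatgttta
The last line is a site that lacks the word but resembles the others on both sides of it. The word overlaps the matrix match and runs past its 3′ end. It was found in 10977 sites of the table (10.6%) and in 8.2% of the sites within 3000 bp of a transcription start. Of the 101 sites with the word that the authors' lists of changed sites annotate, 85 (84.2%) were annotated as B2 SINE, a family of mouse retrotransposons known to have spread CTCF motifs. None of the 20 sites is in those lists, so their own repeat class is not given there. Reads from near-identical copies are hard to place, and for the counts no filter on mapping quality is given in the sources used here.

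The counts are raw reads per site. The libraries, numbered R1 and R3 in the table, summed to 4221752 and 3126722 reads over all sites in -HOT and to 9280701 and 7653295 in +HOT. The -HOT libraries are therefore the shallower ones, and the precision of a difference is set by them. The replicate libraries come from a single line and are described as technical, so each p-value reflects nothing but the spread among these libraries. In a cell population, fewer cells with CTCF at a site and weaker binding in each cell cannot be told apart. The site that overlaps exon 4 of Ash2l had 17.7 and 11.9 normalised reads in -HOT and 6.51 and 14.8 in +HOT. These values overlap, so the counts here do not check the deletion.

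Reads were scaled to a common depth by TMM (trimmed mean of M-values) and are given as normalised reads. The difference between +HOT and -HOT was tested on the raw counts by edgeR's quasi-likelihood test. It covered 99560 sites with enough reads, with Benjamini-Hochberg adjustment over all of them. A site needed these reads in as many libraries as a group holds, so it could enter through 1 group alone. All 20 sites of the Myc family were tested. The log2 fold change (log2FC) is +HOT over -HOT. A site was called higher or lower at an adjusted p below 0.05, and gained or lost where the log2FC also exceeded 1 in size.

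At the Myc family genes CTCF reads fell at the start of Myc and of Mycl1 and rose inside Mycn with the test and scaling described above. Of the called sites, only Myc +1.5 kb kept its call in every test, scaling and filter tried. Of the 20 sites, 1 was gained, the site in the intron of Mycn, against 3.90% of all tested sites. With this test 0 were lost, against 1.50% of all sites. At an unadjusted p below 0.05, edgeR had 4 sites higher, 3 of them past the fold limit, and 3 lower, 0 of them past it. No share of all sites is given at that unadjusted limit. DESeq2, which gave an adjusted p for 10 of the 20 sites, called 0 lost and 0 gained. In total, 1 site was higher (9.45% of all sites) and 3 were lower (9.08% of all sites). Both +HOT libraries were above both -HOT libraries at 6 sites (29.6% of all sites) and below them at 6 (27.2% of all sites). With 20 sites these shares are close to or under the background in every class but the lower sites, where 3 of 20 is 15.0%. That background is not matched in kind. Of the 20 sites, 9 lay within 3000 bp of a transcription start, beside 16.9% of all sites, and 24.0% of other promoter sites were lower. The median log2FC was -0.10 over the 20 sites and 0.01 over all tested sites. The 20 sites had between 10.0 and 220 normalised reads, with a median of 24.2, beside 31.2 over all sites. The standard error of the log2FC was 0.11 to 0.26 at the 8 sites with 40 or more normalised reads and 0.29 to 0.64 at the 12 others, so changes of weak sites were seldom resolvable.

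**Figure D1:**
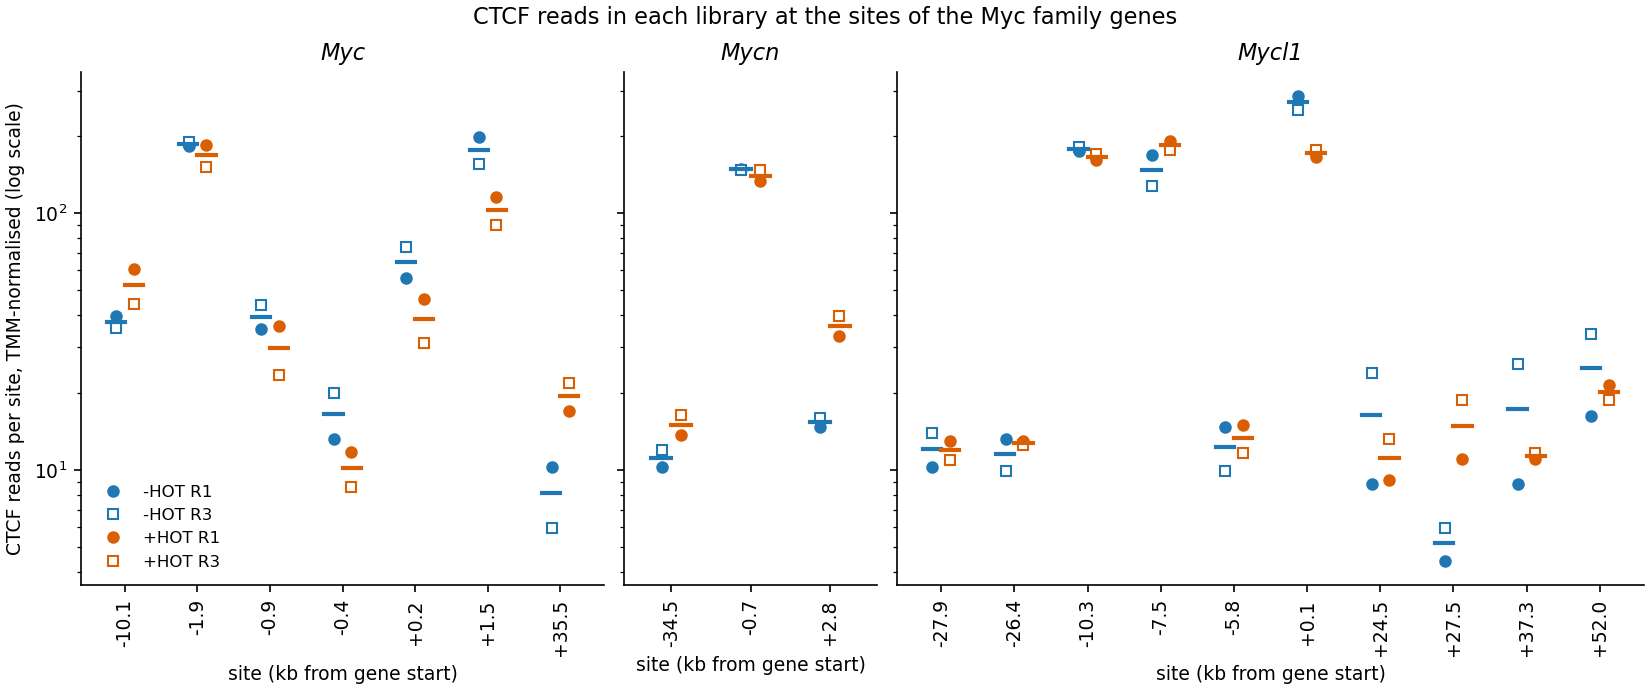
TMM-normalised CTCF reads (log axis) in each library at the 20 sites of Myc, Mycn and Mycl1, ordered by distance from the gene start in kb. Blue marks -HOT, orange +HOT, circles R1, squares R3, and short lines the mean of 2 libraries. The groups separate at Myc +0.2 kb, Myc +1.5 kb and Mycl1 +0.1 kb with +HOT lower and at Mycn +2.8 kb with +HOT higher, and they lie close together at the strong sites Myc -1.9 kb, Mycn -0.7 kb and Mycl1 -10.3 kb.

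Myc encodes c-MYC and lies on the plus strand at chr15:61816946-61821929. It has 6.67 sites per 100 kb of its window, and the median of 22350 protein-coding genes was 6.81. Of its 7 sites, 5 lie within 3000 bp of the transcription start. The strongest was Myc -1.9 kb (chr15:61814746-61815270, upstream of the gene), at percentile 93.8 of all sites by reads. It had 182 and 189 normalised reads in -HOT and 185 and 151 in +HOT. The groups overlapped, and the log2FC was -0.13 (SE 0.12, edgeR adjusted p = 0.534).

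Across the start of the gene the reads fell. Myc +1.5 kb (chr15:61818120-61818868, centred in intron 1 of the full-length transcripts) had 197 and 155 normalised reads in -HOT and 115 and 89.7 in +HOT. Both +HOT libraries were below both -HOT libraries, with means of 176 ± 29.6 and 102 ± 18.1 (SD, n = 2 each), a 1.72-fold lower level in +HOT. The log2FC was -0.79 (SE 0.15, edgeR adjusted p = 4.72e-05). Myc +0.2 kb (chr15:61816958-61817309, in the 5′ UTR of the first exon) had 55.9 and 73.6 normalised reads in -HOT and 46.2 and 31.2 in +HOT. Here too the groups did not overlap. The log2FC was -0.70 (SE 0.24, edgeR adjusted p = 0.0343), but the call was lost without -HOT R3 (adjusted p = 0.301), without +HOT R3 (adjusted p = 0.264) and in DESeq2 (adjusted p = 0.138). It was also lost with total-count scaling (edgeR adjusted p = 0.0545) and with scaling along site strength and GC (adjusted p = 0.0856).

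The remaining promoter sites of Myc had means under 40 normalised reads, at percentiles 53.8 (Myc -0.9 kb) and 14.6 (Myc -0.4 kb) of all sites. Myc -0.9 kb had 35.3 and 43.8 normalised reads in -HOT and 36.5 and 23.4 in +HOT, and the groups overlapped. Myc -0.4 kb had 13.2 and 19.9 in -HOT and 11.7 and 8.58 in +HOT, with +HOT below -HOT. Neither passed the test, with log2FC values of -0.36 (SE 0.29) and -0.65 (SE 0.51). All 5 promoter sites of Myc thus had a negative log2FC, and 2 of them passed the test. Myc -1.9 kb turned to 0.11 with scaling along site strength, to 0.08 with GC fitted as well and to 0.001 without +HOT R3. The 2 sites outside the promoter had positive values that did not pass, at 0.48 for Myc -10.1 kb (edgeR adjusted p = 0.203) and 1.18 for Myc +35.5 kb (adjusted p = 0.0788). The second of these rests on 7 and 3 raw reads in -HOT and 26 and 28 in +HOT. The gene start nearest to it is that of Pvt1, a long non-coding RNA gene next to Myc.

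Summed over the 7 sites, Myc had 534 and 524 normalised reads in -HOT and 472 and 370 in +HOT. The sums did not overlap, and their log2 ratio was -0.33. An exact two-sided permutation test gave p = 0.333, the smallest value that 2 against 2 libraries allow.

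Mycn encodes N-MYC and lies on the minus strand at chr12:12942902-12948720. With 2.84 sites per 100 kb its window held fewer sites than that of Myc, and 21.4% of protein-coding genes had fewer. Mycn +2.8 kb (chr12:12945766-12946124, in the last intron) was the gained site. It had 14.7 and 15.9 normalised reads in -HOT and 33.2 and 39.8 in +HOT. The groups were well apart, with means of 15.3 ± 0.859 and 36.5 ± 4.64 (SD, n = 2 each), a 2.38-fold higher level in +HOT. The log2FC was 1.25 (SE 0.36, edgeR adjusted p = 0.00849). In raw reads the site had 10 and 8 in -HOT and 51 and 51 in +HOT, so the low -HOT counts limit its precision. The call was lost in DESeq2 (adjusted p = 0.101) and without -HOT R1 (adjusted p = 0.134).

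The strong site of Mycn is at its promoter, Mycn -0.7 kb (chr12:12949105-12949642). It had 149 and 147 normalised reads in -HOT and 134 and 147 in +HOT. Both +HOT values were below the -HOT values, but the higher of them by less than 1 read. The log2FC of -0.08 (SE 0.14) did not pass the test (edgeR adjusted p = 0.744). The third site, Mycn -34.5 kb, had 7 and 6 raw reads in -HOT and 21 and 21 in +HOT, and its log2FC of 0.44 (SE 0.49) did not pass. The summed reads of Mycn were 174 and 175 in -HOT and 180 and 203 in +HOT, with a log2 ratio of 0.14 (exact permutation test, p = 0.333, the smallest possible).

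Mycl1 encodes L-MYC and lies on the plus strand at chr4:122672895-122679728, with Trit1, a tRNA-modifying enzyme gene, downstream. Its window held 9.36 sites per 100 kb. Mycl1 +0.1 kb (chr4:122672476-122673436) spans the start of the gene, is 961 bp wide and was the strongest of all 20 sites (percentile 97.9). It had 287 and 253 normalised reads in -HOT and 166 and 176 in +HOT. The groups were far apart, with means of 270 ± 24.1 and 171 ± 7.21 (SD, n = 2 each), a 1.58-fold lower level in +HOT. The log2FC was -0.67 (SE 0.11, edgeR adjusted p = 6.06e-06).

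This fall depends on the scaling. When the libraries were scaled along the strength of the sites by loess, the log2FC was -0.35 (edgeR adjusted p = 0.0165), and when GC content was fitted as well it was -0.04 (adjusted p = 0.879). The same settings left Myc +1.5 kb at -0.69 (adjusted p = 2.31e-04) and -0.42 (adjusted p = 0.0348). Fitting GC content takes out any change that sites of similar GC share, whether it lies in the binding or in the libraries. Which of these it was here was not tested. Myc +1.5 kb was called lower in all 13 settings, those without a library included.

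**Figure D2:**
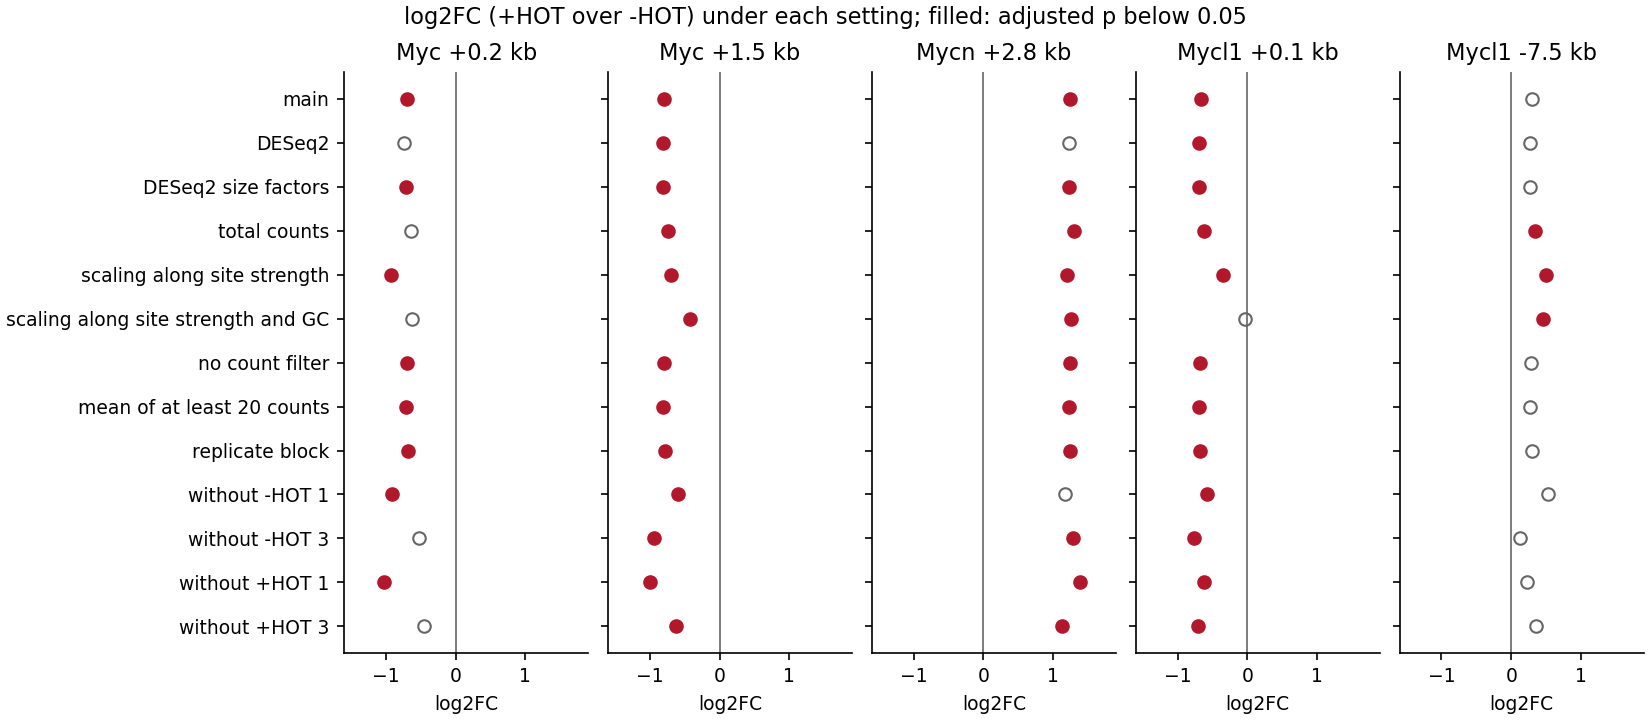
log2FC (+HOT over -HOT) of the 4 called sites and of Mycl1 -7.5 kb under the setting reported here (main) and 12 others, of which the last 4 leave out a library. Filled points passed an adjusted p of 0.05 and open points did not. Myc +1.5 kb is filled throughout at -0.42 to -0.99, Mycl1 +0.1 kb moves to -0.04 when strength and GC are both fitted, and Mycl1 -7.5 kb is filled in 3 settings.

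A pair of strong intergenic sites lies upstream of Mycl1. They fall outside the rule by which sites were named and were chosen after their values were seen. Mycl1 -10.3 kb had 175 and 181 normalised reads in -HOT and 161 and 170 in +HOT. The groups were close together, with a log2FC of -0.11 (SE 0.12, edgeR adjusted p = 0.626). Mycl1 -7.5 kb had 168 and 127 in -HOT and 191 and 175 in +HOT. Its +HOT values were higher, but the log2FC of 0.29 (SE 0.13) did not pass (edgeR adjusted p = 0.108). It passed with total-count scaling (0.34, adjusted p = 0.0488) and with scaling along site strength (0.50, adjusted p = 0.00285).

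The other 7 sites of Mycl1 were weak, with 10.0 to 22.6 normalised reads. Their log2FC values ran from -0.51 to 1.51, and none passed the edgeR test, while 1 had an unadjusted p below 0.05. DESeq2 gave no adjusted p for them. The site with the low unadjusted p was Mycl1 +27.5 kb, in an intron of Trit1, where -HOT had 3 and 3 raw reads and +HOT 17 and 24 (log2FC 1.51, SE 0.64, adjusted p = 0.0906). At Mycl1 +24.5 kb, +37.3 kb and +52.0 kb, all in introns of Trit1, -HOT R3 was the highest library with 23.9, 25.9 and 33.8 normalised reads, and the -HOT R1 values were 8.83, 8.83 and 16.2. The sign of the log2FC at these 3 sites turned without -HOT R3. The summed reads of Mycl1 were 706 and 685 in -HOT and 612 and 619 in +HOT, with a log2 ratio of -0.18 (exact permutation test, p = 0.333, the smallest possible). With scaling along site strength the ratio turned to 0.05.

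A ratio of 2 sites within a library does not depend on how libraries are scaled against each other. The called sites were set against the strongest other site of their gene's window that lies upstream of the gene start, Myc -1.9 kb, Mycn -0.7 kb or Mycl1 -10.3 kb. The reads of Myc +1.5 kb over those of Myc -1.9 kb were 1.08 and 0.821 in -HOT and 0.623 and 0.593 in +HOT. Those of Myc +0.2 kb over Myc -1.9 kb were 0.306 and 0.389 in -HOT and 0.250 and 0.206 in +HOT. The groups did not overlap for either ratio. The ratio of Mycn +2.8 kb to Mycn -0.7 kb was 0.099 and 0.108 in -HOT and 0.249 and 0.271 in +HOT, a 2.51-fold rise. The ratio of Mycl1 +0.1 kb to Mycl1 -10.3 kb was 1.64 and 1.40 in -HOT and 1.03 and 1.04 in +HOT. Each gave p = 0.333 in the exact two-sided permutation test, the smallest possible. The numerators were the called sites and the ratios were formed with the values known. Their separation therefore follows from the calls and is no further evidence for them. A ratio shows unequal change of 2 sites, not which of them changed, and it does not remove a dependence on GC content or strength.

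**Figure D3:**
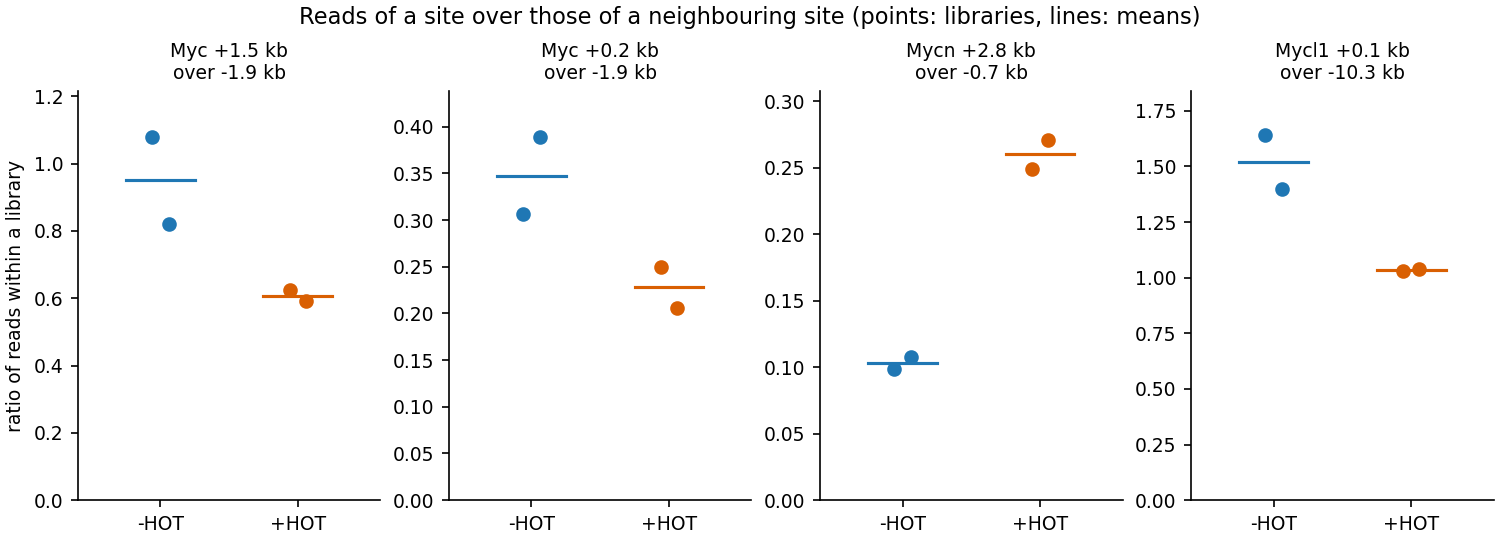
Ratio of the raw reads of a called site to those of a strong neighbouring site of the same gene, by treatment; points are libraries and lines means of 2. The +HOT points lie below the -HOT points for Myc (for example 0.623 and 0.593 against 1.08 and 0.821) and Mycl1, and above them for Mycn.

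The 3 lower sites share base composition. A site was termed CpG-island-like when its central 500 bp held over 50% GC with a ratio of observed to expected CpG above 0.6. This held for 5 of the 20 sites, which are Myc -0.4 kb, +0.2 kb and +1.5 kb, Mycn -0.7 kb and Mycl1 +0.1 kb. Mycl1 +0.1 kb met the limit only narrowly, with a CpG ratio of 0.612, so the split below depends on where the limit was set. All 5 had a negative log2FC (-0.79 to -0.08, median -0.67), and 3 were lower. With scaling along site strength Mycn -0.7 kb turned to 0.06, and with GC fitted as well it was at 0.21 and 1 of the 5, Myc +1.5 kb, was still called lower. Of the 15 others, 6 had a negative log2FC (median 0.09) and 0 were lower in edgeR, at an adjusted or an unadjusted p below 0.05. These 15 hold all but Myc -0.4 kb of the 12 sites under 40 normalised reads, where the standard error was 0.29 to 0.64. Most of them could therefore hardly have been called, and base composition was not separated from site strength. DESeq2 gave an adjusted p for 6 of these 15 and called 0 of them lower. The 4385 other CpG-island-like promoter sites of the table had a median log2FC of -0.47, and 38.5% of them were lower. In the range of 40 to 80 normalised reads, which holds Myc +0.2 kb, 37.1% of 819 such sites were lower. In that of 80 to 160 reads, which holds Myc +1.5 kb, it was 50.2% of 729, and in that of 160 to 320, which holds Mycl1 +0.1 kb, 78.2% of 820. Over the 12683 promoter sites that were not CpG-island-like, the median was -0.19 and 18.9% were lower. Whether the sites of Myc and Mycl1 differ from other such promoters was not tested. Mycn +2.8 kb has 54.3% GC but a CpG ratio of 0.363, so it is not CpG-island-like. Gained sites made up 1.7% of the other promoter sites that were not CpG-island-like and 1.29% of all other promoter sites.

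**Figure D4:**
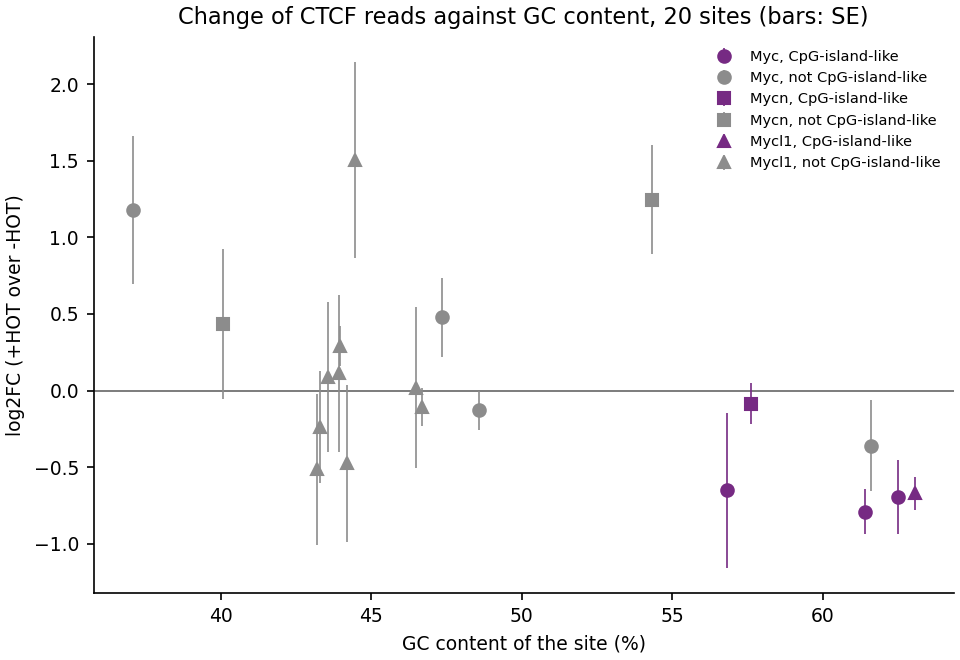
log2FC (+HOT over -HOT, bars SE) of the 20 sites against their GC content in percent; circles are Myc, squares Mycn, triangles Mycl1, and purple marks CpG-island-like sites. The 5 purple points lie below 0 at 56.8 to 63.1% GC, and the gained site of Mycn stands above 1 at 54.3%.

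At the 6 sites with the shared word the log2FC values ran from -0.24 to 1.18 and none passed the edgeR test, while Myc +35.5 kb had an unadjusted p below 0.05. DESeq2 gave no adjusted p for these sites. Each had 12.04 to 22.56 normalised reads. Among the 10448 other tested sites with the word, the median log2FC was 0.07, 2.20% were gained and 0.603% lost.

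Wider windows put the genes in context. Within 500 kb of the 3 genes, 110 of 114 sites were tested, of which 7 were gained (6.36%, against 3.90% of all tested sites) and 1 was lost (0.909%, against 1.50%). With no fold limit, 9 were higher (8.18%, against 9.45%) and 8 lower (7.27%, against 9.08%), both under the share of all tested sites. The sites named next lie outside the naming rule and were chosen after their values were seen. Around Mycn, 3 of 15 tested sites were gained. Beside Mycn +2.8 kb these were a site 160 kb downstream of the gene start, with 25.9 ± 2.87 normalised reads in -HOT and 55.5 ± 7.56 in +HOT (SD, n = 2 each), and a site 319 kb downstream, with 9.87 ± 2.69 and 24.7 ± 2.63. Upstream of Myc, a site at 297 kb was gained, from 16.3 ± 2.27 to 33.1 ± 1.70 (log2FC 1.03, edgeR adjusted p = 0.0325). Near Mycl1 the gained sites were at 447 kb and 214 kb upstream and 208 kb downstream, with log2FC values of 1.70, 1.16 and 1.12. The gained sites 319 kb downstream of Mycn and 208 kb downstream of Mycl1 had a -HOT library under the read filter. They therefore entered the test through +HOT, where they are high. The lost site, 112 kb upstream of Mycl1 and near a start of Cap1, a gene for an adenylyl cyclase-associated actin regulator, fell from 46.0 ± 10.96 to 13.01 ± 3.66 (log2FC -1.80, edgeR adjusted p = 6.21e-05). At the edge of the 50 kb window, the outermost site of Mycl1 that was included lay 45.1 kb from the gene body and the first one left out 51.2 kb, where the mean was 151 in -HOT and 161 in +HOT.

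**Figure D5:**
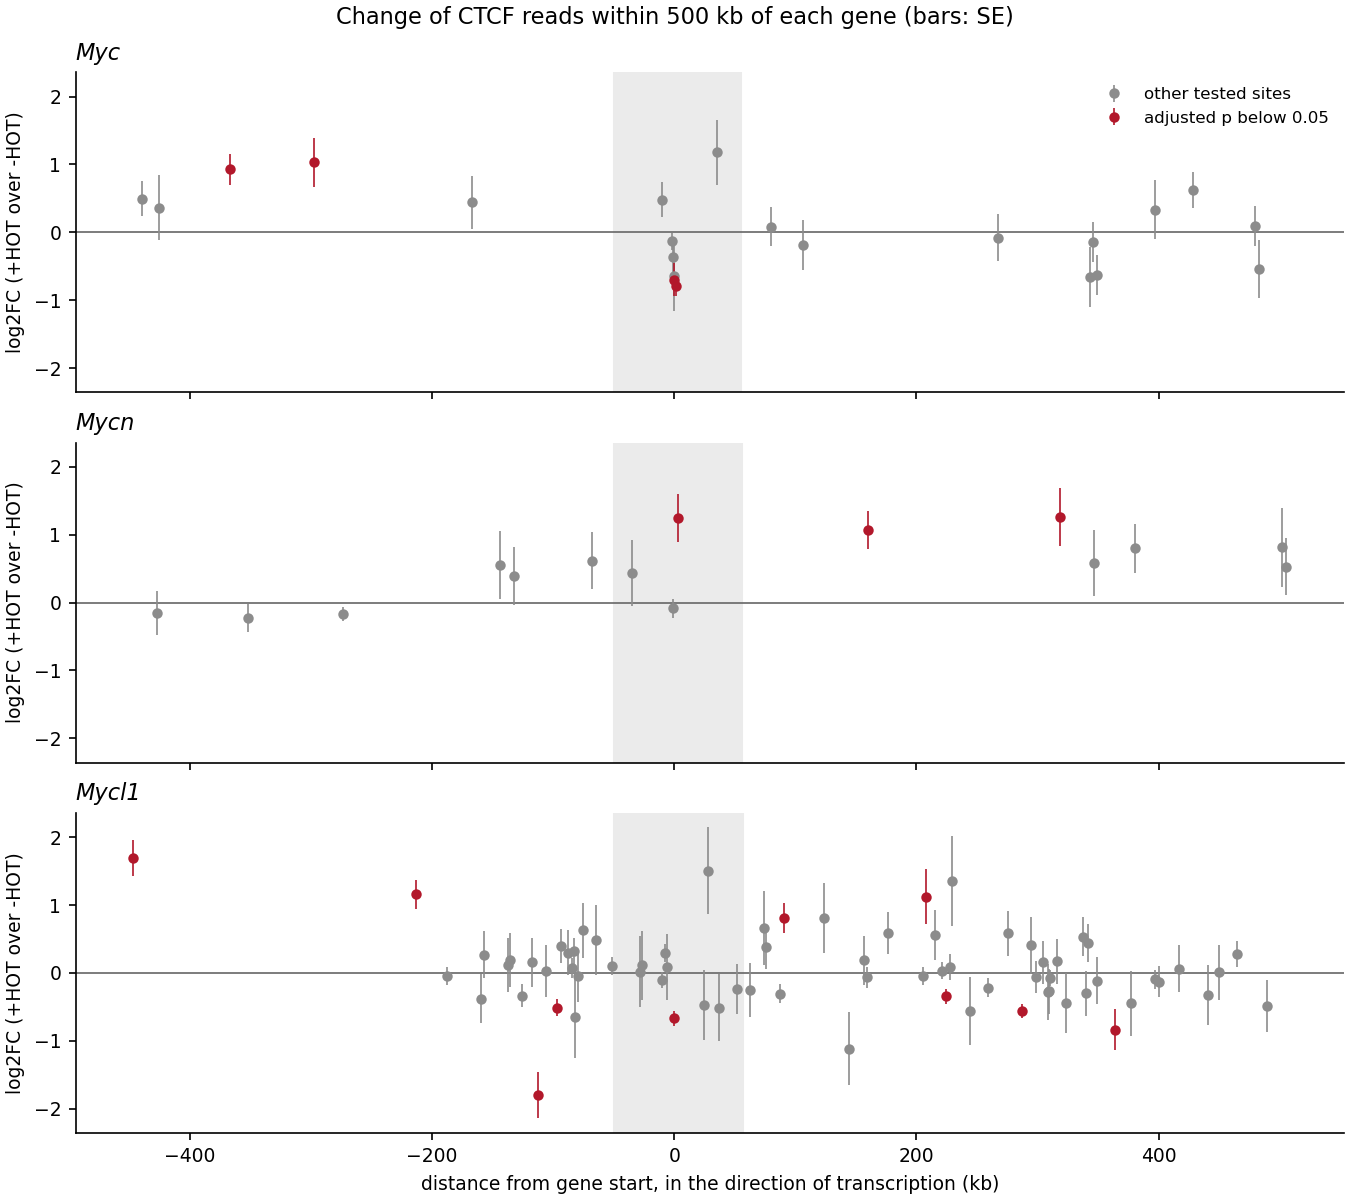
log2FC (+HOT over -HOT, bars SE) of the 110 tested sites within 500 kb of Myc, Mycn and Mycl1 against the distance of the site from the gene start in kb; the grey band covers the gene body and 50 kb on either side, and red points passed an adjusted p of 0.05. At Mycn the 3 red points are all positive, whereas Myc and Mycl1 have red points of both signs.

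Genes of the wider MYC network were followed at their promoters, defined as sites within 3000 bp of a start, with the same calls. Over all other promoter sites 24.0% were lower, 3.52% higher, 6.01% lost and 1.29% gained. The Max and Mlx network takes in dimer partners and antagonists of MYC as well as partners of MLX. In it, 7 of 10 genes had a site, and of 20 sites 1 was lower and 0 higher in edgeR. At an unadjusted p below 0.05, 6 were lower and 0 higher. DESeq2 gave an adjusted p for 13 of the 20 and called 0 lower and 0 higher. For none of the lists is a share of other promoter sites given at an unadjusted p or for DESeq2, so those counts stand without a background. The lower site was at Mxd3, a MAX dimerisation protein that represses MYC targets, where the mean was 95.1 ± 11.8 in -HOT and 62.5 ± 0.089 with HOT (log2FC -0.59, edgeR adjusted p = 0.0212). The median log2FC of the list was -0.23, beside -0.28 over other promoter sites. Bmyc, a MYC paralogue without the DNA-binding domain, had 2 sites, of which the site at its start was lower, where the mean fell from 164 ± 13.2 to 103 ± 8.59 (log2FC -0.66, edgeR adjusted p = 5.67e-04).

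Of the cofactors and stability factors of MYC, 8 of 15 annotated genes had a site, and of 15 sites 5 were lower, 2 of them lost, while 0 were higher in edgeR, also at an unadjusted p below 0.05. DESeq2 gave an adjusted p for 7 of the 15 sites and called 1 lower, which was also lost, and 0 higher. Both lost sites were at Wdr5, a core subunit of the KMT2 complexes beside ASH2L that also binds MYC. The stronger fell from 58.8 ± 4.11 to 22.4 ± 5.18 normalised reads (log2FC -1.36, edgeR adjusted p = 2.12e-04), the weaker from 22.3 ± 10.7 to 6.64 ± 1.67 (log2FC -1.65, adjusted p = 0.0210). The weaker was under the read filter in +HOT and entered the test through -HOT alone. Trrap, the scaffold of histone acetyltransferase complexes that MYC recruits, fell from 392 ± 19.8 to 307 ± 10.9, and Ruvbl2, an ATPase of such complexes, from 383 ± 34.7 to 297 ± 8.43. The median of this list was -0.29.

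Of the MYC target genes, 13 of 21 had a site, and of 22 sites 6 were lower, 1 of them lost, and 1 was gained. DESeq2 gave an adjusted p for 12 of the 22 and called 4 lower, 1 of them lost, and 0 gained, with no adjusted p for the site gained in edgeR. Hspd1, a mitochondrial chaperonin gene, had the lost site, where the mean fell from 71.9 ± 8.09 to 20.9 ± 4.66 (log2FC -1.78, edgeR adjusted p = 1.20e-06). Fbl, which encodes the nucleolar methyltransferase fibrillarin, fell from 172 ± 12.6 to 98.5 ± 2.99. Cdkn1a, the p21 gene that MYC represses, fell from 291 ± 39.0 to 206 ± 5.91, and Gadd45a, another repressed target, from 126 ± 15.99 to 75.4 ± 2.96 at its start. The gained site, which falls outside the naming rule and was chosen after its value was seen, was also near Gadd45a, with 5.19 ± 1.102 and 17.8 ± 0.251. Its -HOT reads were under the read filter, so it entered the test through +HOT alone. This target list had a median of -0.39. No list was set against other genes by a test. All these values are read densities of CTCF and say nothing of the expression of the genes.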

How the data were processed

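CTCF ChIP-seq of iMEF2 cells was analysed from the deposited table of raw counts per site. The authors trimmed reads with Trim_Galore, aligned them to mm9 with BWA, removed duplicates and blacklisted regions, called narrow peaks with MACS2 and compared treatments with DESeq2. For versions, the read counter and pooling before peak calling, the sources used here give nothing. The 4 columns of the authors' normalised values were not used, and their lists of changed sites served only for repeat annotation, since their fold changes and p-values are the authors' own comparisons. Inputs were not analysed here.

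Columns were matched to treatments by name. They are numbered R1 and R3, the labels R1 and R2, so they were mapped to groups only. Table starts count from 0 and are printed here from 1. Tests used edgeR 4.0.16 in R 4.3.3 (TMM, filterByExpr with a minimum count of 10, adjusted p below 0.05 and log2FC above 1 in size for gained or lost), tested on simulated data. DESeq2 1.42.0, other scalings and filters, a replicate block and leaving out each library were the alternatives. Named were sites within 3000 bp of a start of, or inside, the 3 genes, the strongest site per gene and each called site, and in each gene list the called promoter sites of smallest p, at most 4, or else the strongest. The members, the lists and the rules were chosen with earlier results of these data known. The shared word and the ratios were added after the values were seen.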

Additional observations from a re-analysis of the deposited data

How the results depend on the processing

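Of 215 values of single sites under 12 alternative settings, 189 kept their direction and their side of the threshold, 8 were no longer called, 3 became called and 15 changed sign. DESeq2 gave 1682 sites gained and 719 lost in the whole table (edgeR 3878 and 1491) and 0 Myc family sites gained or higher, with an adjusted p for 10 of the 20. Scaling along site strength gave 2411 sites gained and 2 Myc family sites higher; with GC fitted too these were 2221 and 2, and 1 site was lower. Total counts gave 2 higher. With no fold limit, 3 sites counted as lost. Windows of 100 kb held 2 higher sites (5.41% of those tested). Those of 500 kb held 7 gained (6.36%), 1 lost (0.909%), 9 higher (8.18%) and 8 lower (7.27%).

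Leaving out a library gave 0 to 1 gained, 0 to 1 lost, 0 to 1 higher and 2 to 3 lower sites of the Myc family. The lost site was Myc +0.2 kb without +HOT R1 (log2FC -1.02), and the gained call ended without -HOT R1.

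These signs turned, none of them at a called site. The summed reads of Mycl1 had a log2 ratio of 0.0454 with scaling along site strength. In that setting Myc -1.9 kb was at 0.113, Mycn -0.7 kb at 0.057 and Mycl1 -10.3 kb at 0.123, and with GC fitted too at 0.076, 0.21 and 0.078, with Mycl1 -27.9 kb at -0.038. Over the fits without a library, log2FC ran from -0.289 to 0.001 at Myc -1.9 kb, -0.22 to 0.211 at Mycl1 -27.9 kb, -0.063 to 0.345 at Mycl1 -26.4 kb, -0.141 to 0.418 at Mycl1 -5.8 kb, -1.114 to 0.313 at Mycl1 +24.5 kb, -1.19 to 0.35 at Mycl1 +37.3 kb and -0.752 to 0.306 at Mycl1 +52.0 kb. The causes were not tested.

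The deviations of equally numbered libraries had a correlation of 0.0257. Counting noise in single sites can hide a pairing, so this value cannot decide whether the numbers pair the samples. With the number as a replicate block 3947 sites were gained and 1548 lost, with 1 gained and 3 lower at the Myc family. The 2 shallow -HOT libraries limit the weak sites: 9 of the 20 had under 20 normalised reads.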
